A study of Mus musculus with 5 samples.

Results

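The nuclear factor I (NFI) family of the mouse consists of Nfia, Nfib, Nfic and Nfix, and all 4 were taken by their gene symbols from the GENCODE M1 annotation of mm9, out of 19893 gene models counted. They were measured by GRO-seq, in which nuclei are allowed to extend RNA that polymerase had already begun, the new RNA is labelled and purified, and its strand and position are read by sequencing. The reads therefore report engaged polymerase rather than stored mRNA. The MEF samples, 2 by the labels, were embryonic fibroblasts at passage 2 from male E13.5 embryos. The MESC samples they were set against, 3 by the labels, were V6.5 embryonic stem cells at passages 12-14, kept undifferentiated with LIF on irradiated feeder cells. Both carry the strain label C57Bl/6(f) x 129/Sv(m), the labels name no drug or genetic change, and V6.5 is a single established line. Reads of each cell type were deposited as 1 pool, so each group is 1 library, no replicate spread can be computed, and the intervals below are 95% intervals of counting error only.

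NFI proteins are transcription factors that bind DNA as dimers of any pair of family members, through a conserved amino-terminal domain, at the palindrome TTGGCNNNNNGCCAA. They were first known as a host factor for adenovirus replication and later as regulators of development. In mice, Nfia and Nfib are needed for glial differentiation and for the forebrain's fibre tracts, Nfib also for lung maturation, Nfic for tooth root formation, and Nfix for brain and skeletal development and for the fetal stage of muscle. In fibroblasts they are long known as binders of collagen gene promoters.

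The MEF pool held 6583644 reads and the MESC pool 8616592, and the scale was set by the 6571116 MEF and 8571395 MESC reads outside the mitochondrial genome. Densities are given in RPKM, sense reads per kilobase scaled to 1e6 of those reads. Intergenic sequence averaged 0.0168 RPKM per strand in MEF and 0.0218 in MESC. The labels held up against the cell type markers. All 9 fibroblast marker genes were at least 4-fold denser in MEF, with a summed density of 84.1 RPKM in MEF and 2.77 in MESC, and all 7 stem cell markers were at least 4-fold denser in MESC, with 0.188 RPKM in MEF and 43.0 in MESC and 3 of the 7 at 0 reads in MEF.

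The stretches of 100 bases with the most sense read ends within 500 bases of the annotated start used for each NFI gene show where engaged polymerase was found near those starts. For Nfix that is the internal start of Nfix-001, and the stretch begins 322 bases past it. They are printed 5′ to 3′ on the gene's strand from the mm9 genome, with capitals at bases where the 5′ end of at least 1 read of either library fell.
Nfia, chr4:97444408-97444507, plus strand: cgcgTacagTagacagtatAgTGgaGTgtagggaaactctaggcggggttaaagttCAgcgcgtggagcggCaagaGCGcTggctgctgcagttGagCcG
Nfib, chr4:82151668-82151767, minus strand: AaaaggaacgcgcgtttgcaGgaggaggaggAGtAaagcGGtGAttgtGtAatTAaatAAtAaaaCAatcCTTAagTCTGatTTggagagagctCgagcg
Nfic, chr10:80889600-80889699, minus strand: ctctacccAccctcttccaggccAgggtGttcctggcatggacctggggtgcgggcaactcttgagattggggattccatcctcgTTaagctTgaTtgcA
Nfix, chr8:87296874-87296973, minus strand: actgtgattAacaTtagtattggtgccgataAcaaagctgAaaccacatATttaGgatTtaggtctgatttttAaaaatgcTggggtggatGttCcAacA
The Nfia stretch held 8 reads in MEF and 10 in MESC, the Nfib stretch 19 in MEF and 23 in MESC, the Nfic stretch 6 in MEF and 2 in MESC, and the Nfix stretch 15 in MEF and 2 in MESC. At Nfia and Nfib the pools thus gave similar numbers of reads, and at Nfic and Nfix most reads came from MEF.

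The windows from 250 bases before to 50 after the annotated start with the most reads differed in base composition. For Nfix that is the internal start of Nfix-001, so its window does not cover the start of the longest model. G and C made up 84.0% of the Nfia window, 50.3% of that of Nfib, 64.3% of that of Nfic and 52.0% of that of Nfix, against a median of 57.7% over the promoters of 16621 protein-coding genes. None of the 4 windows held the palindrome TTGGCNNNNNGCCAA or the shorter site TTGGCA, searched on both strands. These letters occur in 0.0361% and 13.0% of all 16621 windows. The absence of the letters in a window says nothing about binding of the factor.

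All 4 NFI gene bodies carried more polymerase in MEF than in MESC, and Nfix differed most. Bodies were counted from 1000 bases after the start of the longest transcript to its annotated end. The summed density of the family was 5.14 RPKM in MEF and 1.34 RPKM in MESC, a ratio of 3.85. Of the 9488 gene bodies with at least 50 reads in 1 pool, 5.50% were at least 4-fold denser in MEF and 8.00% at least 4-fold denser in MESC. Among the NFI genes, 1 of 4 was past that ratio, Nfix, in the direction of MEF. The median log2 ratio of MEF over MESC was 1.38 over the 4 NFI genes and −0.30 over all bodies. Of the bodies past the ratio, 40.75% were denser in MEF as scaled here, and 51.75% when the pools were scaled so that the median of all bodies was 0.

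**Figure D1:**
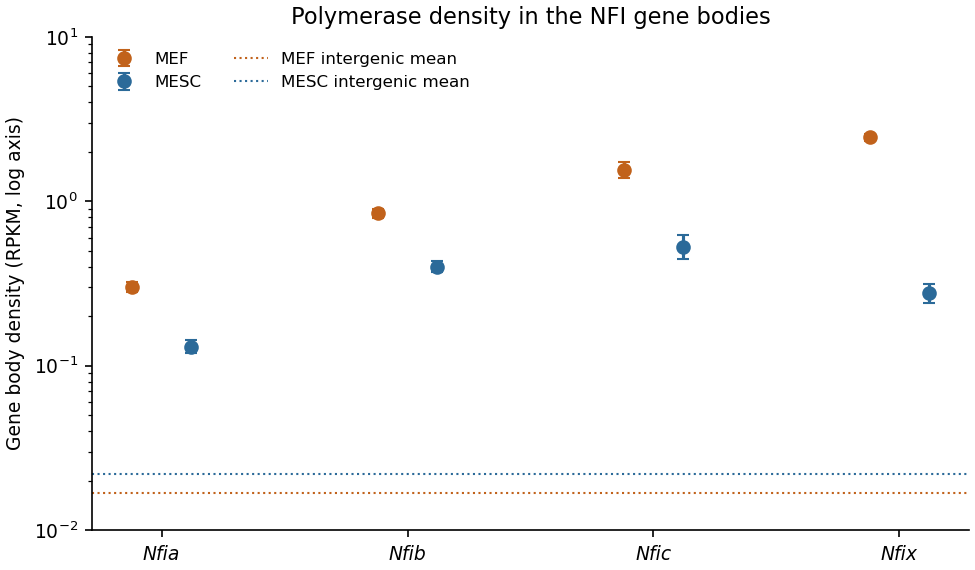
Gene body density of the 4 NFI genes (RPKM, log axis) in MEF and MESC, with exact 95% intervals of counting error, 1 pool per cell type, and dotted lines at the intergenic mean of each pool. In MEF the genes rank from 0.300 RPKM for Nfia to 2.45 for Nfix, and in MESC all lie between 0.131 and 0.529, above the dotted lines.

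Nfix (ENSMUSG00000001911.9, chr8:87232515-87324243, minus strand) had 1459 sense reads in MEF and 215 in MESC. Its body density was 2.45 RPKM (2.32–2.58) in MEF and 0.276 RPKM (0.241–0.316) in MESC, a ratio of 8.85 (7.67–10.3) and a log2 ratio of 3.15. Only 201 of the 9488 bodies compared had a higher log2 ratio. In rank among those bodies Nfix stood at percentile 88.2 in MEF and at percentile 16.2 in MESC.

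Nfic (ENSMUSG00000055053.10, chr10:80858931-80889932, minus strand), the shortest of the family, had 306 sense reads in MEF and 136 in MESC. Its density was 1.55 RPKM (1.38–1.74) in MEF and 0.529 RPKM (0.444–0.626) in MESC, a ratio of 2.93 (2.39–3.62) and a log2 ratio of 1.55. This gene stood at percentile 75.9 of all bodies in MEF and 29.2 in MESC.

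Nfia (ENSMUSG00000028565.11, chr4:97444336-97868605, plus strand), the longest, had 834 sense reads in MEF and 474 in MESC. Spread over a body of 423270 bases, these gave 0.300 RPKM (0.280–0.321) in MEF and 0.131 RPKM (0.119–0.143) in MESC, a ratio of 2.30 (2.05–2.57) and a log2 ratio of 1.20. Per length it was the least dense member in both pools, at percentile 20.7 in MEF and 7.77 in MESC.

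Nfib (ENSMUSG00000008575.10, chr4:81936077-82151674, minus strand) had 1188 sense reads in MEF and 737 in MESC. The densities were 0.842 RPKM (0.795–0.892) in MEF and 0.401 RPKM (0.372–0.431) in MESC, a ratio of 2.10 (1.92–2.31) and a log2 ratio of 1.07. The gene stood at percentile 50.6 in MEF and 22.5 in MESC.

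**Figure D2:**
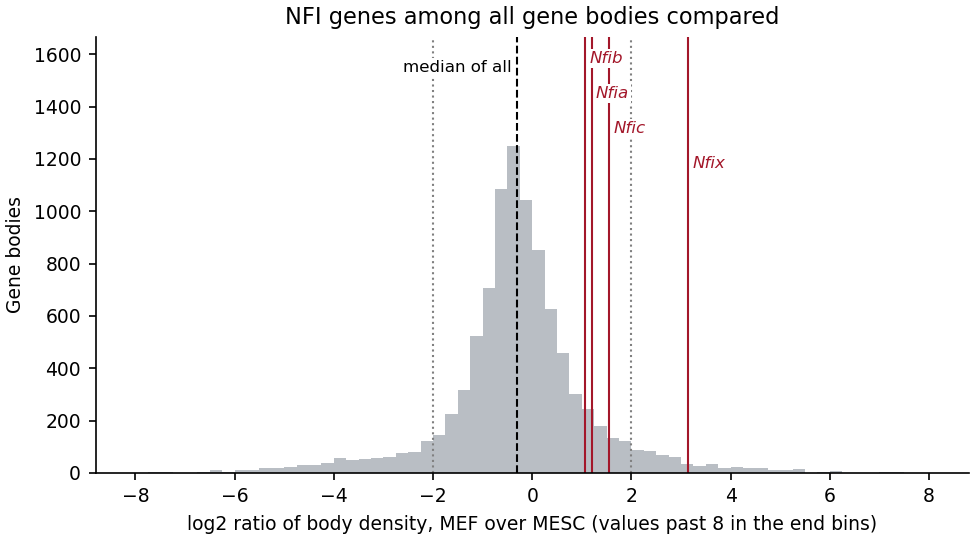
Number of gene bodies (vertical axis) by log2 ratio of body density, MEF over MESC, in bins of 0.25, for the 9488 bodies compared, with the NFI genes as red lines, the median of all as a dashed line at −0.30 and 4-fold as dotted lines. All 4 NFI genes lie right of the median and Nfix, at 3.15, is the one past the dotted line.

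The order of the family differed between the cell types. In MEF the densities ran Nfix, Nfic, Nfib, Nfia from high to low, with steps of 1.58-fold (1.39–1.79), 1.84-fold (1.62–2.09) and 2.81-fold (2.57–3.07). In MESC they ran Nfic, Nfib, Nfix, Nfia, with steps of 1.32-fold (1.09–1.59), 1.45-fold (1.24–1.70) and 2.12-fold (1.79–2.49). Each neighbour in either order thus differed by more than counting error. Nfix made up 47.6% of the family's summed density in MEF and 20.7% in MESC. Nfib made up 16.4% in MEF and 30.0% in MESC, Nfic 30.2% in MEF and 39.6% in MESC, and Nfia 5.83% in MEF and 9.77% in MESC.

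The MEF over MESC ratios of the members were compared in 6 pairs. The log2 ratio of Nfix exceeded that of Nfic by 1.59 (1.24–1.95), that of Nfia by 1.95 (1.68–2.21) and that of Nfib by 2.07 (1.83–2.32). Nfic exceeded Nfib by 0.48 (0.16–0.80) and Nfia by 0.35 (0.02–0.69). Nfia minus Nfib gave 0.13 (−0.08–0.34), an interval that includes 0, so the ratios of these genes, both on chromosome 4, could not be told apart at this depth. The MESC pool mixes reads of 35 and 36 bases, and each set alone kept every member denser in MEF. With only 35-base MESC reads the log2 ratios were 1.28 for Nfia, 1.14 for Nfib, 1.27 for Nfic and 3.22 for Nfix. With only 36-base reads they were 1.13 for Nfia, 1.02 for Nfib, 1.86 for Nfic and 3.09 for Nfix.

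The density of Nfia fell from the first to the middle of 3 equal parts of the body, counted from the 5′ end, and was lowest in the last. The first part held 413 reads in MEF and 254 in MESC, the middle part 294 in MEF and 149 in MESC, and the last part 127 in MEF and 71 in MESC. The MEF over MESC ratios of the parts were 2.12 (1.81–2.49), 2.57 (2.11–3.16) and 2.33 (1.73–3.17), with overlapping intervals. Reads were sparse past the ends of the other coding transcripts. The final 83040 bases, which the longest model alone covers, held 22 reads in MEF and 5 in MESC. They lie within the last of the 3 parts, so its low density does not show a further decline before that stretch. Without these 83040 bases the body of Nfia had 812 reads in MEF and 469 in MESC, a ratio of 2.26 (2.01–2.54).

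Nfix was nearly level along its length in MEF, with 480, 480 and 499 reads in the 3 equal parts, and in MESC it had 65, 62 and 88. The ratios were 9.63 (7.42–12.7), 10.1 (7.74–13.4) and 7.40 (5.89–9.39). In Nfib the parts held 466, 428 and 294 reads in MEF and 270, 268 and 199 in MESC, with ratios of 2.25 (1.93–2.63), 2.08 (1.78–2.44) and 1.93 (1.60–2.32). Those of Nfic held 116, 87 and 103 reads in MEF and 55, 33 and 48 in MESC, with ratios of 2.75 (1.98–3.86), 3.44 (2.28–5.30) and 2.80 (1.97–4.03). The higher density in MEF was therefore present in every part of every member.

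**Figure D3:**
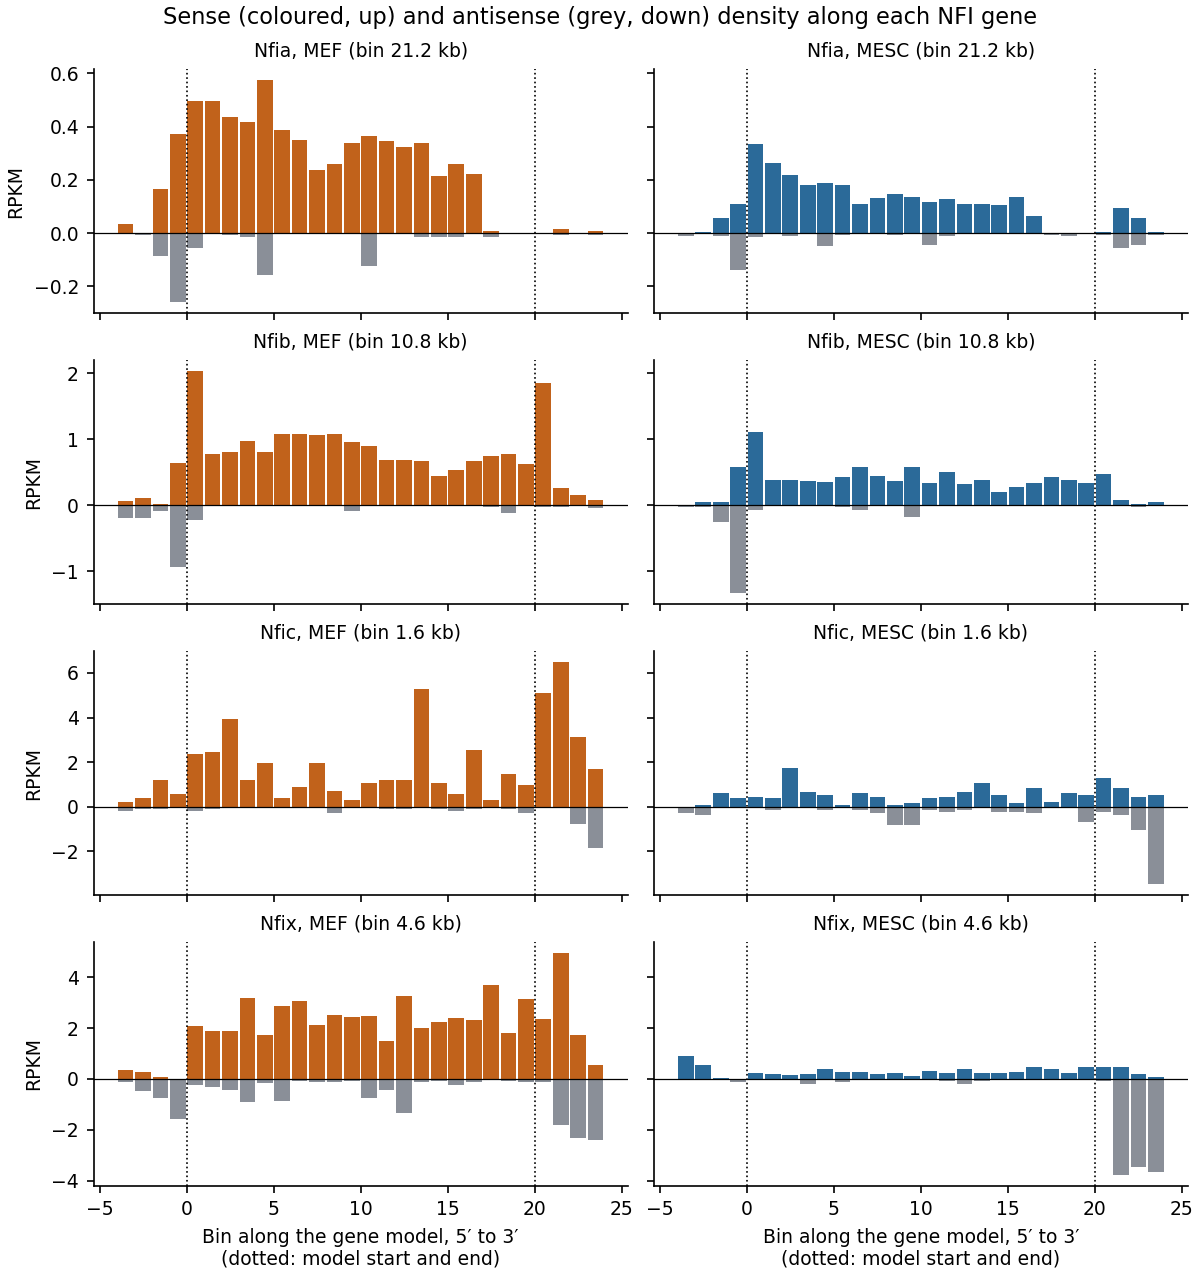
Density in RPKM along each NFI gene model, in 20 bins within the model and further bins of the same width on either side, MEF on the left and MESC on the right, with sense reads upward and antisense reads downward in grey. Sense density runs past the annotated end of Nfib, Nfic and Nfix in MEF, and in Nfia it ends before the end of the longest model.

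Introns, which make up most of each body, carried most of the reads. In Nfix the introns held 1423 reads in MEF and 208 in MESC, a ratio of 8.92 (7.71–10.4), and the exons 36 in MEF and 7 in MESC, a ratio of 6.71 (2.94–17.9). Intronic ratios were 2.35 (2.10–2.65) for Nfia, 2.09 (1.90–2.30) for Nfib and 2.99 (2.38–3.77) for Nfic. Exonic ratios were 2.29 (1.51–3.53) for Nfib and 2.71 (1.67–4.51) for Nfic. The exons of Nfia held 20 reads in MEF and 23 in MESC, a ratio of 1.13 (0.591–2.16) that does not exclude 1.

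Polymerase was also found past the last annotated end of 3 of the genes. In the next 5000 bases Nfic had 153 sense reads in MEF and 38 in MESC, a ratio of 5.25 (3.66–7.70). Its density there was 4.66 RPKM in MEF and 0.887 in MESC, which is above its body density in both. Nfib had 95 reads in MEF and 39 in MESC, a ratio of 3.18 (2.17–4.74), and 2.89 RPKM in MEF and 0.910 in MESC, again above the body. Nfix had 59 in MEF and 8 in MESC, a ratio of 9.62 (4.58–23.3), and Nfia 0 in MEF and 1 in MESC.

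Many genes hold a paused polymerase just past their start, and pausing is measured as the ratio of promoter-proximal to body density, called the pausing index. The promoter window ran from 50 bases before to 300 after the annotated start with the most reads, among 10 annotated starts of Nfia, 8 of Nfib, 6 of Nfic and 8 of Nfix. An index of at least 2 was found for 76.7% of 9937 genes in MEF and 77.9% of 11125 genes in MESC. Of the 4 NFI genes 2 reached it in either pool, Nfia and Nfib. Nfix, measured at a start inside its counted body, was below it. Nfic was just below it in both pools and passed it under some alternatives. Its index was 2.04 in MEF when each position was counted once and 2.51 in MESC at the start of the longest transcript.

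The Nfib window held 22 reads in MEF and 22 in MESC, a density of 9.54 RPKM (5.98–14.4) in MEF and 7.31 RPKM (4.58–11.1) in MESC. Its MEF over MESC ratio was 1.30 (0.689–2.47), an interval that includes 1, and its log2 ratio of 0.38 turned to −0.14 with 36-base MESC reads alone. The pausing index was 11.3 (7.07–17.2) in MEF and 18.3 (11.4–27.8) in MESC, and the MEF index divided by the MESC index was 0.620 (0.341–1.13), also with 1 in the interval. It was the only member whose window reached the 20 reads asked of the 5179 windows compared, of which 3.57% were at least 4-fold denser in MEF and 6.72% in MESC. Their median log2 ratio was −0.28.

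The Nfia window held 10 reads in MEF and 11 in MESC, a ratio of 1.19 (0.451–3.08). The index was 14.5 (6.91–26.7) in MEF and 28.0 (13.9–50.5) in MESC, and the MEF index divided by the MESC index was 0.517 (0.218–1.23). Its body density, 0.300 RPKM in MEF and 0.131 in MESC, includes the sparse final 83040 bases. Without them the density was 0.363 RPKM in MEF and 0.161 in MESC, which would lower both indices. At Nfia and Nfib, then, promoter reads were similar in number in the pools while body reads were more numerous in MEF, but the indices did not differ beyond counting error.

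The Nfic window held 7 reads in MEF and 3 in MESC, with an index of 1.96 (0.780–4.08) in MEF and 1.89 (0.384–5.63) in MESC. The Nfix window, at the internal start of Nfix-001, held 7 reads in MEF and 0 in MESC, with an index of 1.24 (0.498–2.56) in MEF and 0, up to 4.47, in MESC. That window lies inside the counted body of Nfix and its reads are also body reads. The index of Nfix therefore cannot tell polymerase held at that start from polymerase passing it. For comparison, the median index over all genes was 5.26 in MEF and 5.52 in MESC. With so few reads the indices of Nfic and Nfix do not exclude values above 2.

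**Figure D4:**
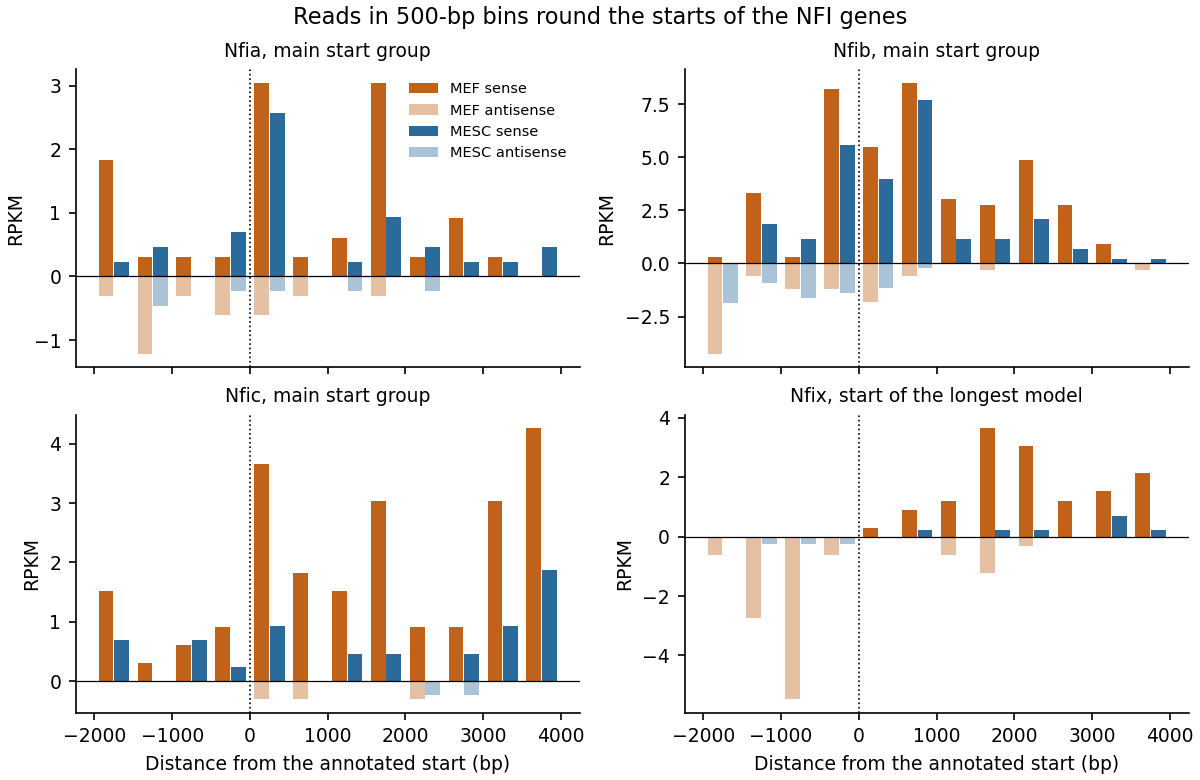
Reads in bins of 500 bases round an annotated start of each NFI gene (horizontal axis in base pairs, vertical axis in RPKM), sense upward and antisense downward, MEF left of MESC in each bin. Nfib has reads of both pools on either side of its start, and Nfix in MEF has antisense reads before the start of its longest model, 18 in the bin from −1000 bp, against 1 in MESC.

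Reads were spread unequally over the annotated starts. The 6 starts of Nfib within 500 bases of each other, which serve 13 transcripts, held 40 reads in MEF and 43 in MESC, counted from 50 bases before the first of them. The 500 bases before that first start, which share those 50 bases with the count, held 27 sense reads in MEF and 24 in MESC. The most upstream start of Nfib, that of Nfib-010, at position 82351654, had 0 reads in either pool, under the floor of 3 counts. Among the starts of Nfia the group of 7 at the start of most transcripts held 11 reads in MEF and 11 in MESC, and the start of Nfia-005 held 4 in MEF and 0 in MESC. The 20 kb before the start of the Nfia model, which contain that earlier start, held 50 sense reads in MEF and 19 in MESC, a ratio of 3.43 (1.99–6.17).

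In Nfix the starts of the longest transcripts held 1 read in MEF and 0 in MESC, those of Nfix-004 and Nfix-201 3 in MEF and 0 in MESC, and that of Nfix-001 7 in MEF and 0 in MESC. The first of the 3 equal parts of the body, most of which lies before the Nfix-001 start, had a density of 2.42 RPKM in MEF and 0.251 in MESC, and the last part 2.51 in MEF and 0.339 in MESC. In Nfic the internal start of Nfic-009 held 4 reads in MEF and 0 in MESC, and the upstream start of Nfic-004 held 1 in MEF and 0 in MESC. All of these counts are small, and apart from the main group of Nfib no order of the starts was drawn from them.

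Antisense transcription accompanied Nfix in MEF. The 20 kb before its longest model held 87 antisense reads in MEF and 8 in MESC, a ratio of 14.2 (6.89–33.9), while the sense strand there, which runs into the neighbour Dand5, held 28 in MEF and 69 in MESC, a ratio of 0.529 (0.328–0.832). Inside the Nfix body, 193 antisense reads were counted in MEF and 38 in MESC. As a share of all body reads they were 11.7% (10.2–13.3) in MEF and 15.0% (10.9–20.03) in MESC, with exact Clopper-Pearson intervals. Counted in bins of 1000 bases with at least 5 antisense reads in 1 pool, 6 intronic clusters held 123 of them in MEF and 22 in MESC. Clusters of every member were picked by the same reads that give their ratios, and the intervals do not cover that choice. The cluster at chr8:87266515-87269514 had 42 in MEF and 9 in MESC, a ratio of 6.09 (2.92–14.2), and that at chr8:87307515-87312514 had 35 in MEF and 9 in MESC, a ratio of 5.07 (2.39–12.0).

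Nfic went the other way on its antisense strand. Its body held 14 antisense reads in MEF and 63 in MESC, 4.38% (2.41–7.23) of body reads in MEF and 31.7% (25.3–38.6) in MESC, although its sense reads were denser in MEF. An intronic cluster at chr10:80874931-80877930 held 3 in MEF and 23 in MESC, a ratio of 0.170 (0.0327–0.563). Its bins met the minimum of 5 reads through MESC alone, so the ratio only describes the bins picked. The noncoding transcript Gm16104, on the opposite strand beside that cluster, had 0 reads in MEF and 4 in MESC.

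Nfia had 55 antisense reads in its body in MEF and 28 in MESC, at 0.0198 RPKM in MEF and 0.00772 in MESC, against an intergenic mean of 0.0168 in MEF and 0.0218 in MESC. Its cluster at chr4:97535336-97536335 held 20 in MEF and 7 in MESC, a ratio of 3.73 (1.51–10.4). Nfib had 28 antisense reads in MEF and 34 in MESC. Before its main start runs the noncoding gene Gm11266 on the opposite strand, with 76 reads in MEF and 125 in MESC, a ratio of 0.793 (0.588–1.06), an interval that includes 1.

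Of the genes next to the NFI genes, 1 had a MEF over MESC ratio close to that of its NFI neighbour. E130114P18Rik, which overlaps the Nfia start on the other strand, had 71 reads in MEF and 34 in MESC, a ratio of 2.72 (1.79–4.23), with an interval that holds the ratio of Nfia. Its density was 0.0515 RPKM in MEF and 0.0189 in MESC, and the MESC value was below the intergenic mean of 0.0218. Of its strand's reads, 33 in MEF and 24 in MESC lay in the 20 kb before the Nfia model, a ratio of 1.79 (1.03–3.17). On the far side of Nfia, Tm2d1 gave 0.964 (0.767–1.21). Beside Nfib, Mpdz gave 1.23 (1.08–1.39) and Zdhhc21, a palmitoyltransferase gene, 0.578 (0.474–0.702). Beside Nfic, Celf5, which encodes an RNA-binding protein, had 18 reads in MEF and 136 in MESC, a ratio of 0.173 (0.0993–0.283), and 2210404O07Rik 0 in MEF and 5 in MESC. Beside Nfix, Trmt1, a tRNA methyltransferase gene whose end lies 68 bases from that of Nfix, gave 0.643 (0.543–0.760), and Dand5, a secreted inhibitor of Nodal signalling, 0.606 (0.467–0.780).

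A repeated sequence lies inside the annotated span of Nfib but outside its counted body, at chr4:82265527-82265598 on the minus strand, 113.8 kb before the main start. It is shown because its reads alone turn the ratio of the whole span, and capitals mark letters that match the box B promoter element of tRNA genes.
Nfib span, 72 bases: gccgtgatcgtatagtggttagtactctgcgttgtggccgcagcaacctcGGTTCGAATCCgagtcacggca
Sense reads starting in it or within 60 bases of it numbered 92 in MEF and 1310 in MESC. Over the whole annotated span Nfib had 1409 sense reads in MEF and 2169 in MESC, a log2 ratio of −0.24, opposite in sign to that of the body. The genome holds 8 identical copies of the sequence on 3 chromosomes, so reads wholly inside it cannot be assigned to 1 copy.

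The stem cells were grown on irradiated feeder cells, and the part of feeder nuclei in the MESC values was not tested. As a percent of the MEF density, the MESC density of the 9 fibroblast markers ranged from 0.25% for Postn to 21.3% for Pdgfra, with a median of 3.01%, and their summed density was 3.30%. None of the 9 was at 0. The same percent was 11.3% for Nfix, 34.1% for Nfic, 43.6% for Nfia and 47.6% for Nfib. Nfia, Nfib and Nfic thus had a larger share of their MEF density in MESC than any of the 9 markers, and Nfix lay within their range. In bulk nuclei, fewer cells of a type and less polymerase per cell cannot be told apart.

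Markers of other cell types were also counted. Of 6 macrophage markers the 2 measured were at least 4-fold denser in MEF, and the 6 summed to 421 reads in MEF and 63 in MESC. Of 6 neural and glial markers the 2 measured, Stmn2 and Elavl3, were at least 4-fold denser in MESC. The list held 98 reads in MEF and 902 in MESC. Gfap, on the same list but below the read minimum, went the other way, with 19 in MEF and 7 in MESC. Of 4 epithelial markers the 3 measured were at least 4-fold denser in MESC, with 64 in MEF and 2376 in MESC over the list. Of 4 endothelial markers 2 were measured and neither passed 4-fold, with 140 reads in MEF and 334 in MESC. The part of such cells in the NFI values was not tested.

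Among 11 genes for known partners and regulators of NFI, 6 were measured, with a median log2 ratio of −1.11, against −0.30 over all bodies. Of the 6, 0 were at least 4-fold denser in MEF and 2 in MESC, against 5.50% and 8.00% of all 9488 bodies. Ski, a corepressor that binds NFI, had 1289 reads in MEF and 1287 in MESC, a ratio of 1.31 (1.21–1.41), and its relative Skil 414 in MEF and 818 in MESC, a ratio of 0.660 (0.585–0.744). The glucocorticoid receptor gene Nr3c1 had 389 in MEF and 227 in MESC, a ratio of 2.24 (1.89–2.64), close to those of Nfia and Nfib. Pou2f1, which encodes the octamer factor that works beside NFI in adenovirus replication, had 420 in MEF and 1683 in MESC, a ratio of 0.326 (0.292–0.362). Among those past the ratio was Pax6, a neural and eye transcription factor gene, with 24 reads in MEF and 232 in MESC, a ratio of 0.135 (0.0847–0.206).

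Of 27 genes known as NFI targets from mouse or cell studies, 14 were measured, with a median log2 ratio of 1.07, against −0.30 over all bodies. Of the 14, 2 were at least 4-fold denser in MEF and 0 in MESC, against 5.50% and 8.00% of all 9488 bodies. Whether NFI acts on these genes here was not tested. Col1a2, a collagen chain gene that is also among the fibroblast markers, had 4030 reads in MEF and 158 in MESC, a ratio of 33.3 (28.4–39.3). Pparg, the master regulator of fat cells, had 125 in MEF and 10 in MESC, a ratio of 16.3 (8.58–34.8). Cdh2, the N-cadherin gene, had 1667 in MEF and 803 in MESC, a ratio of 2.71 (2.49–2.95). Lower in MEF were Bbx, a DNA-binding protein gene with 623 reads in MEF and 1980 in MESC, a ratio of 0.410 (0.374–0.449), and Ezh2, the Polycomb methyltransferase gene, with 429 in MEF and 896 in MESC, a ratio of 0.625 (0.555–0.701). Among targets known from glia, Slc1a3, a glutamate transporter gene, had 170 reads in MEF and 587 in MESC, a ratio of 0.378 (0.317–0.449), Gfap had 19 in MEF and 7 in MESC, and Aqp4 1 in MEF and 1 in MESC.

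Families of developmental transcription factors gave a background to the NFI genes. Of 7 Meis and Pbx genes, homeodomain partners of Hox proteins, 5 were measured, with a median log2 ratio of 1.15. Of the 5, 0 were at least 4-fold denser in MEF and 1, Pbx4, in MESC, against 5.50% and 8.00% of all bodies. Meis1 had 1098 reads in MEF and 520 in MESC, a ratio of 2.75 (2.48–3.06), between those of Nfia and Nfic. Meis2 had 1020 in MEF and 601 in MESC, and Pbx3 759 in MEF and 938 in MESC.

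Of 6 Runx and SoxD genes, skeletal and blood regulators, 3 were measured, with a median log2 ratio of 1.59. Of the 3, 1 was at least 4-fold denser in MEF and 0 in MESC, against 5.50% and 8.00% of all bodies. Runx1 had 3122 reads in MEF and 357 in MESC, a ratio of 11.4 (10.2–12.8), above that of Nfix. Sox6 had 498 in MEF and 216 in MESC, a ratio of 3.01 (2.56–3.54), and Sox13 58 in MEF and 229 in MESC, a ratio of 0.330 (0.243–0.442). Runx2 and Sox5 were left out because their bodies overlap another gene on the same strand. Of the measured genes of both families, Runx1 alone had a ratio as high as that of Nfix. Runx2, though left out, also had a higher ratio, 10.7 (9.44–12.3), from 2157 reads in MEF and 262 in MESC.

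**Figure D5:**
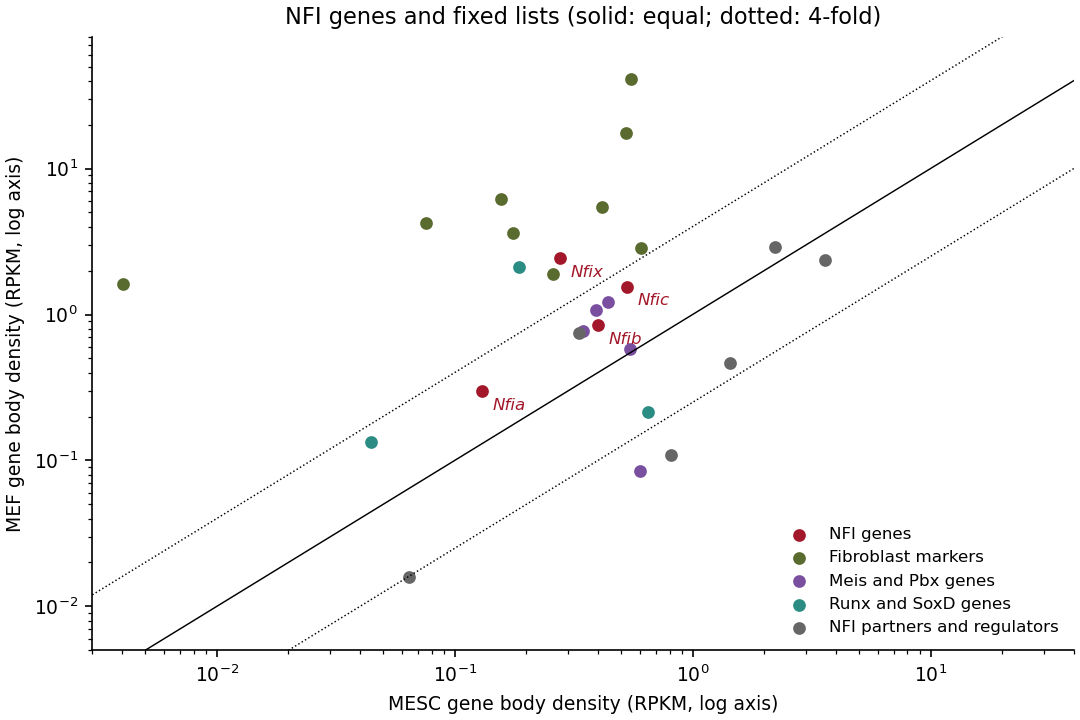
Gene body density in MEF (vertical) against MESC (horizontal), both in RPKM on log axes, for the measured genes of the NFI family, the fibroblast markers and 3 gene lists, 1 point per gene. Nfia, Nfib and Nfic lie between the line of equal density and the dotted 4-fold line beside the Meis and Pbx genes, and Nfix lies past it among the lower fibroblast markers.

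The genes closest to each member in density over the 2 pools, by distance on the log2 scale, were found among all bodies with at least 50 reads in 1 pool. For Nfix they were Col2a1, the cartilage collagen gene, with 2.31 RPKM in MEF and 0.274 in MESC at a distance of 0.0873, then Kdelr3 and Pcdh18. For Nfia they were Npnt, 9030617O03Rik and Lyst, for Nfib Steap1, Sdc2 and Myo1e, and for Nfic Camk2d, Rps6ka4 and Arrdc4. With only 2 libraries, a likeness of this kind says that the genes had similar levels in both and no more.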

How the data were processed

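GRO-seq reads of 5 samples were deposited by the authors as 1 list per cell type, per the file headers pooled over MEF libraries 1 and 2 and over all MESC libraries. Each line holds 1 read with a count of 1, without normalization, aligned to a genome with repeats left unmasked, per the file headers. Eland, mm9 and the removal of regions similar to rRNA come from the design text. How duplicates and multiple matches were treated, and the version of Eland, are not given in the sources used. The listed position is the read's 5′ end, counted from 1: of every 400th read, 95.5% in MEF and 93.0% in MESC matched the NCBIM37 genome there with at most 2 mismatches.

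From these counts, sense reads were counted over GENCODE M1 models of at least 2000 bp whose body overlaps no other gene on its strand. Ratios are MEF over MESC, with counts under 3 set to 3 for log2 values, exact conditional Clopper-Pearson 95% intervals for ratios and Poisson intervals for densities. Intervals for differences of log2 ratios and for ratios of indices are normal approximations from the same counts. All cover counting error only, and reads without molecular identifiers may be copies: 71.3% of positions in MEF and 74.4% in MESC were distinct per read. Of all reads, 16.42% in MEF and 11.57% in MESC fell in 2 loci that each held over 1% of the reads of either pool. With 1 pool per group no count model was fitted, and edgeR 4.0.16 was used for its scaling factors alone. The calculation was tested on simulated data. Python 3.11.15, scipy 1.17.1 and R 4.3.3 were used.

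The members and gene lists were chosen with earlier results of these data known. Named were the 4 members, up to 4 genes per list with the most reads, the 3 genes nearest each member and its neighbours, and further list genes named after their values were seen: Pax6, Pparg, Slc1a3, Gfap, Aqp4, Pbx4, Postn and Pdgfra. Some list genes are not reported here by name. Alternatives were other scalings, body limits, starts, read minimums and read sets.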

Additional observations from a re-analysis of the deposited data

Results flagged for a closer look

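A repeated 72-base sequence of tRNA form inside the Nfib span, outside the counted body, gave a signal that the body comparison does not use and that the count over the whole span includes. It had 92 reads in MEF and 1310 in MESC, a MESC over MEF ratio of 10.9 (8.83–13.6). Of these, 0 reads in MEF and 1127 in MESC lay wholly inside the 72 bases, where they match all 8 identical copies. Reads reaching the flanking sequence numbered 92 in MEF and 183 in MESC, a MESC over MEF ratio of 1.52 (1.18–1.98). That ratio mixes read lengths: the 92 in MEF all had 35 bases, and in MESC 35 reads had 35 bases and 148 had 36. Reads of 35 bases made up 46.2% of the MESC pool. The ratio therefore does not show more polymerase at this site in MESC.

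Read length moved with where such reads were placed. Of the 36-base MESC reads, 1127 of 1275 at the Nfib site lay wholly inside it, and 0 of 1884 at the other copies did. Of the 35-base reads, 0 of 92 in MEF and 0 of 35 in MESC lay wholly inside at the Nfib site, against 2365 of 5255 in MEF and 995 of 3004 in MESC at the other copies. All MEF reads had 35 bases. Over the 8 copies together the reads numbered 5347 in MEF and 6198 in MESC.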

How the results depend on the processing

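The sign of the body log2 ratio was positive for all 4 genes under every alternative run except 1. Over the whole annotated span, an alternative chosen after seeing the data, Nfib gave −0.24, with 1310 of its 2169 MESC reads at the repeated sequence. Scaling by the median ratio of gene bodies added 0.30 to every log2 ratio, giving 1.50 for Nfia, 1.38 for Nfib, 1.86 for Nfic and 3.45 for Nfix, and scaling by TMM factors added 0.24, giving 1.44 for Nfia, 1.31 for Nfib and 3.39 for Nfix. The body common to all annotated transcripts gave 1.55 for Nfib from 18 reads in MEF and 8 in MESC. It gave 0.38 for Nfic from 3 in MEF and 2 in MESC, and 3.97 for Nfix from 36 in MEF and 2 in MESC. The 2 MESC reads of either gene were raised to the floor of 3, so the positive sign of Nfic there comes from the scale alone. These counts of Nfib, Nfic and Nfix were under the minimum of 50 reads. Nfia, with 175 reads in MEF and 99 in MESC, met it but gave 1.21, short of 4-fold, so that 0 genes passed. The body common to coding transcripts, also added later, gave 1.92 for Nfic, and 36-base MESC reads alone 1.86. At a minimum of 200 reads, 307 bodies were at least 4-fold denser in MEF and 284 in MESC, against 522 in MEF and 759 in MESC at a minimum of 50. Promoter log2 ratios rest on few reads: with 35-base MESC reads alone Nfib gave 1.41 and Nfix 0.50, and with 36-base reads alone Nfib gave −0.14 and Nfix 0.71. Nfix had 7 reads in MEF and 0 in MESC in both of these sets. Its values there come from the floor of 3 and the smaller MESC totals, not from a change in reads. In the window from 250 bp before to 500 after, Nfia gave −0.10 and Nfix 3.32, the latter from 23 reads in MEF and 3 in MESC. At the start of the longest transcript Nfic gave −0.03, from 2 reads in MEF, raised to the floor of 3, and 4 in MESC. The intervals of Nfia, Nfib and Nfic as reported all include 0. At the start of the longest transcript the pausing index of Nfic was 0.559 in MEF and 2.51 in MESC, and that of Nfix was 0 in MEF, where its promoter ratio has no value. With each position counted once the index of Nfic was 2.04 in MEF. Where no reason is given, the cause was not tested. No paired analysis was possible because reads of each cell type were pooled and carry no sample name, and leaving out replicates was not run for the same reason.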
